A study of Drosophila melanogaster with 32 samples.

Results

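The 9 genes described here, CG2187, CG15534, CG8329, CG3088, CG32523, CG7017, CG7763, pigs and CG15263, are genes whose transcript level differed from the control in most of 7 Drosophila melanogaster lines that each carry 1 P-element insertion. They were taken by name, and the values that chose them were the differences between line and control measured on these same arrays, so every comparison of a line with the control is a description below. Counts of lines past a threshold of limma (adjusted p of at most 0.05) restate how the genes were chosen and are not tests of them. Each name or synonym matched 1 probe set, so that 9 of 18769 probe sets that are not array controls, and 9 of 11949 genes with a probe set of a single symbol, are covered. All 9 probe sets passed the filter on low signal. Averaged over both sexes, pigs and CG15263 passed that threshold against the control in 7 of the 7 lines, CG2187, CG15534, CG8329 and CG3088 in 6, CG32523 and CG7017 in 5, and CG7763 in 4, which is the smallest number that counts as most lines.

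The flies were virgins aged to 42 days, males and females apart, and RNA was taken from pools of whole bodies. The control was Canton S F, a w1118 strain, and the insertion lines are homozygous for a P{GT1} element. By the study's account a gene disruption project built them in the control's background, and whether each line shares it along every chromosome was not tested. The lines are named after the gene nearest to the element, namely pyd, mub, crol, CG10990, CG9238 and esg, with BG00817 named after its insert, whose exact site was unknown to the study. Each genotype is a single line, and each line and sex has 2 arrays of 2 pools, which gives 32 arrays in 16 groups. Every difference from the control rests on the same 4 control arrays, 2 of each sex, so that a control array that stands high or low moves every line's difference together.

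Several of the genes belong to families that act in the gut and in membranes. Serine proteases are secreted enzymes that cut proteins, and in flies many of them are made by the midgut to digest food, while serine protease homologs keep the fold but lack a complete catalytic site. Chitin-binding proteins build the peritrophic matrix that lines the gut, C-type lectins bind sugars, acid sphingomyelinases split the membrane lipid sphingomyelin into ceramide and phosphocholine, and transporters of the SLC5 family carry small solutes into cells together with sodium.

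Levels are MAS5 signals, the fluorescence of a probe set on a linear scale set so that each array has the same trimmed mean, and differences are on the log2 scale, where 1 unit is a doubling. Signals under 47.4, the lowest value that the filter kept, were not ranked. A difference that involves such a signal is given as a bound, with that signal raised to 47.4, and none is given where both groups average under it. CG32523 and CG7763 passed the filter only through the insertion lines, since in the control at least 1 array of each sex was under 47.4, so their passing is itself part of how they differ. Median signal per array ran from 117 to 143 in males and from 49.2 to 72.3 in females, and the arrays of a pair correlated at r = 0.964 to 0.985. All 6 female markers and all 6 male markers checked separated the sexes without overlap, in the direction of their label. In whole flies, fewer cells of a type and less RNA per cell cannot be told apart.

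A gene counted as shifted in a line and sex where its mean differed from the control of that sex by 1 log2 unit or more. Both of its arrays also had to lie above the 2 control arrays, or both below them. By that measure 89 of 126 combinations of gene, line and sex were shifted, 44 of 63 in males and 45 of 63 in females. Of all kept probe sets, 0.712% were shifted in 4 or more lines in males and 1.3% in females, and 1.14% were called in 4 or more lines by limma. Nothing is read from the difference between these shares and the 9 genes, since the genes were selected on it. CG7763, at 4 lines, stands at the edge of the choice, and a further 236 probe sets stood just outside it with 3 lines.

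**Figure D1:**
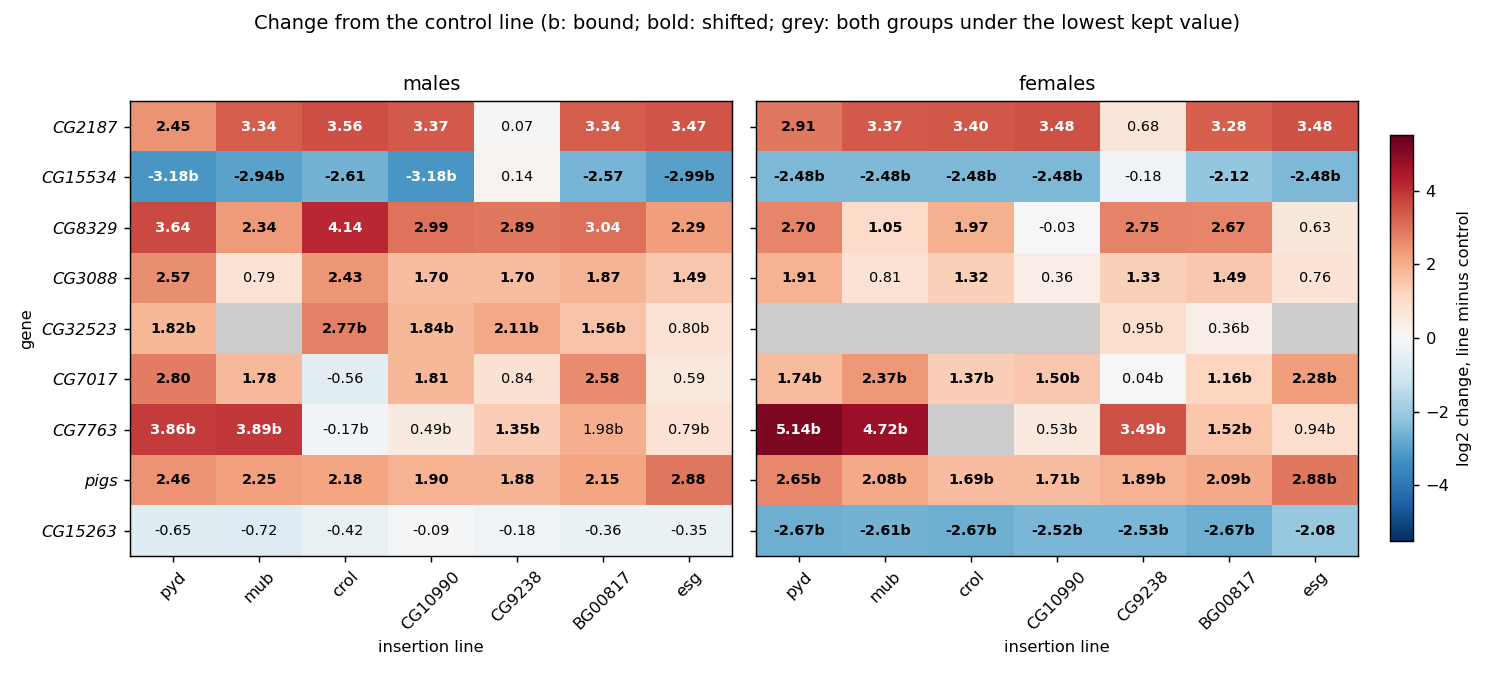
Change from the control in each insertion line (columns) for the 9 genes (rows), males on the left and females on the right, as log2 signal of the line minus that of the control, from 2 arrays against 2. Numbers marked b are bounds, bold numbers are shifts of 1 or more with no overlap, and grey cells have both groups under 47.4. CG2187 and CG15534 stay near 0 in the CG9238 line and move in opposite directions in the other 6, pigs is higher throughout, and CG15263 is at -2.08 or below in females but not below -0.72 in males.

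Line by line, the genes past the threshold used in choosing them were 9 of the 9 in pyd, where 1.92% of all probe sets passed it, 9 in mub (12.3% of all), 6 in crol (2.45%), 8 in CG10990 (1.3%), 6 in CG9238 (4.31%), 8 in BG00817 (8.19%) and 6 in esg (5.6%). These add up to 52 of 63 pairs of gene and line, and nothing is read from them against the shares of all probe sets. The 52 fell to 30 in an analysis of variance on log2 signal that estimates the spread of each probe set alone. Calls over all kept probe sets fell there in every line too, from 242 to 66 in pyd and from 1556 to 1205 in mub. Without either control male array, which leaves 1 array in that group, the 52 also fell, as did the calls over all kept probe sets in every line. The shift count was 88 to 92 of 126 with any 1 array left out. An array of an insertion line bears only on the 9 genes in its own line and sex. A single array also meets the condition of no overlap more easily than 2, so this range cannot show how far the shifts rest on single arrays.

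CG2187, a transporter gene of the SLC5 family, was far brighter in 6 of the lines and stayed near the control in the CG9238 line. In males its signals were 75.2 and 62.9 on the control arrays, 389 and 364 in pyd, 721 and 667 in mub, 878 and 753 in crol, 684 and 736 in CG10990, 76.3 and 68.5 in CG9238, 676 and 715 in BG00817 and 754 and 772 in esg. The 12 male arrays of the other 6 lines lay between 364 and 878, all far above the 4 arrays of the control and CG9238, which spanned 62.9 to 76.3. Female signals were 100.4 and 71.2 on the control arrays, 563 and 718 in pyd, 888 and 864 in mub, 908 and 883 in crol, 1063 and 840.2 in CG10990, 136 and 134 in CG9238, 871 and 776 in BG00817 and 993 and 899 in esg. CG9238 females stood slightly above both control arrays, by 0.68 log2 units, whereas males of that line overlapped the control at 0.07. In the 6 shifted lines the gene was 2.45 to 3.56 log2 units higher in males, which is 5.48-fold to 11.8-fold, and 2.91 to 3.48 higher in females, 7.51-fold to 11.2-fold. The pyd line had the smallest shift of the 6 in both sexes. Of 13 other measured genes of the transporter family 0 were called in 4 or more lines and 9 in none, and their median change by line ran from -0.29 to 0.22. Of all kept probe sets 1.14% were called in 4 or more lines, and most, 9733 of them, in none. Counts of 0 and of genes called in none are therefore common, and nothing is read from them here.

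CG15534, which encodes an acid sphingomyelinase, showed the mirror pattern. Male signals were 424 and 436 on the control arrays, 43.4 and 25.6 in pyd, 45.3 and 65.7 in mub, 61.5 and 80.4 in crol, 18.1 and 37.4 in CG10990, 449.9 and 501 in CG9238, 53.1 and 99.2 in BG00817 and 29.8 and 61.9 in esg. Females had 280.2 and 249 on the control arrays, 31.6 and 25.0 in pyd, 46.5 and 31.4 in mub, 40.1 and 37.2 in crol, 8.80 and 5.17 in CG10990, 266 and 204 in CG9238, 49.7 and 73.7 in BG00817 and 40.8 and 21.3 in esg. The CG9238 line again stayed with the control, 0.14 log2 units above it in males and 0.18 below it in females, with the female arrays overlapping. In the other 6 lines no array exceeded 99.2 in males or 73.7 in females, against at least 424 and 249 in the control. The difference was measured in crol and BG00817 males, at -2.61 and -2.57, and in BG00817 females, at -2.12. In the remaining groups it was bounded by the low signals, with a change of -2.94 log2 units or lower in mub, -2.99 or lower in esg and -3.18 or lower in pyd and CG10990 males, and of -2.48 or lower in females of 5 lines.

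**Figure D2:**
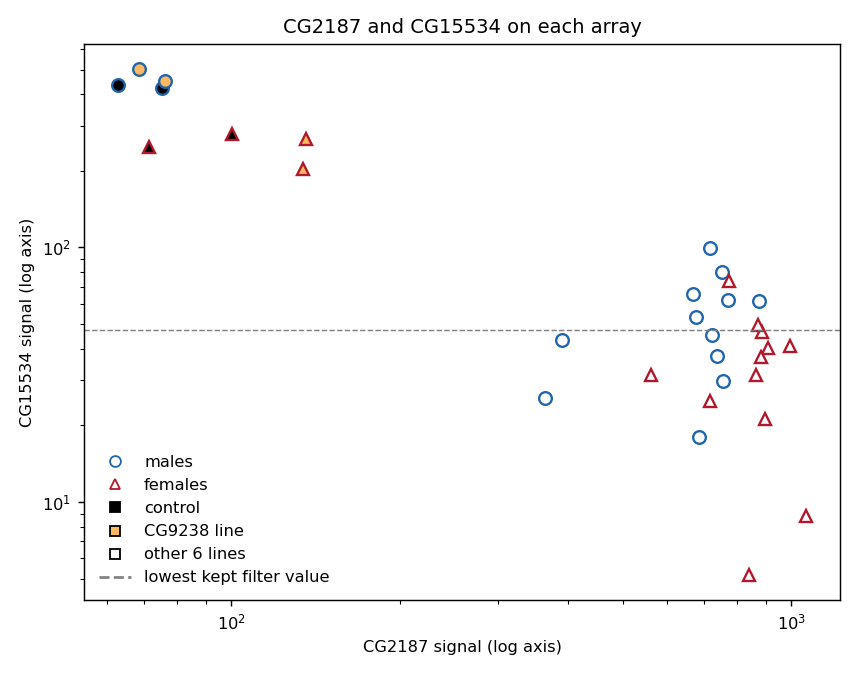
CG15534 signal (vertical, log axis) against CG2187 signal (horizontal, log axis) on each of the 32 arrays, circles for males and triangles for females, with the control in black and the CG9238 line in orange. The 8 arrays of the control and CG9238 sit at the upper left and the 24 arrays of the other 6 lines at the lower right, with none in between.

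CG2187 and CG15534 split the lines into the same 2 clusters, so that no correlation across them is given. Both genes lie on chromosome arm 3R, with 177 genes between them in the RefSeq gene order. Likeness of pattern was taken as the correlation over the 16 means of line and sex, with each sex centred on its own mean, and is given as a description, since these means share arrays and control. By it, the genes outside the 9 most like CG2187 were dco, a casein kinase gene of the circadian clock (r = 0.879), CG15554 (r = 0.856) and e, the ebony gene of pigment formation (r = 0.849), which all lie on the same arm with 86, 80 and 1610 genes in between. For CG15534 they were Chchd3, a mitochondrial inner membrane gene with 89 genes in between (r = 0.911), CG1789 (r = 0.839) and CG11279 (r = 0.824). The amplitudes differed greatly, since dco spanned only 0.64 log2 units over the male means and Chchd3 0.70. By limma dco was called in 1 line and CG15554 and e in 0, while Chchd3 was called in 4, CG1789 in 1 and CG11279 in 0. As CG2187 and CG15534 vary mostly between the 2 clusters, these r values rest on that split too.

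Of the 3 measured genes on either side of CG2187 and of CG15534, none was shifted in 4 or more lines of either sex. Among them, picked after their values were seen, were Smvt, a multivitamin transporter gene of the SLC5 family that is the nearest measured gene on one side of CG2187, with 0 lines shifted and 3 called by limma, CG15533, an acid sphingomyelinase gene next to CG15534 with 0 lines shifted in males and 1 in females, and CDase, a ceramidase gene with 0 in either sex. The sphingolipid list does not count CG15534 itself. Of its 20 measured genes 0 were called in 4 or more lines and 17 in none. Its median change by line ran from -0.06 to 0.02, against -0.05 to -0.01 over all probe sets.

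The serine protease gene CG8329 was higher in males of all 7 lines, and in females of 5. Its male signals were 577 and 435 on the control arrays, 6727 and 5775 in pyd, 2481 and 2599 in mub, 8455 and 9196 in crol, 4053 and 3888 in CG10990, 3841 and 3580.1 in CG9238, 3146 and 5432 in BG00817 and 2395 and 2498 in esg. Each of the 14 male arrays exceeded both control arrays at least 4-fold, with crol at the top and esg and mub at the bottom. Female signals were 135 and 191 on the control arrays, 987 and 1099.7 in pyd, 218 and 503 in mub, 1185 and 333 in crol, 125 and 197 in CG10990, 1224 and 953 in CG9238, 937 and 1113 in BG00817 and 123 and 502 in esg. The differences were 2.29 to 4.14 log2 units in males (4.88-fold to 17.6-fold). In females pyd, CG9238 and BG00817 stood 2.67 to 2.75 above the control, crol 1.97 and mub 1.05, while CG10990 (-0.03) and esg (0.63) overlapped the control arrays.

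CG3088, a serine protease homolog gene with 6 genes between it and CG8329 on arm 3L, was higher than the control on every array. In males the signals were 1064 and 914 on the control arrays, 5405 and 6320.1 in pyd, 1677 and 1746 in mub, 4911 and 5727 in crol, 2755 and 3732 in CG10990, 3162 and 3232 in CG9238, 2831 and 4589 in BG00817 and 2929 and 2623 in esg. In females they were 397 and 394 on the control arrays, 1524 and 1449.9 in pyd, 684 and 707 in mub, 1463 and 668 in crol, 481 and 537 in CG10990, 1079 and 919.6 in CG9238, 947 and 1304 in BG00817 and 429 and 1050.5 in esg. The 28 arrays of the insertion lines all exceeded both control arrays of their sex, by little in CG10990 and esg females. The difference reached 1 log2 unit in 6 lines in males, 1.49 to 2.57 higher, and in 4 lines in females, 1.32 to 1.91 higher. The mub line, at 0.79 in males and 0.81 in females, and CG10990 and esg females, at 0.36 and 0.76, fell short of it.

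CG32523, another serine protease gene, read under 47.4 on the control arrays, in mub males and on most female arrays. Male signals were 5.43 and 4.49 on the control arrays, 219.6 and 128 in pyd, 42.4 and 41.9 in mub, 279 and 376 in crol, 145 and 198 in CG10990, 240.3 and 174 in CG9238, 101 and 193 in BG00817 and 75.3 and 90.6 in esg. Females had 6.82 and 4.49 on the control arrays, 75.8 and 18.8 in pyd, 18.4 and 12.4 in mub, 61.9 and 2.18 in crol, 6.33 and 8.29 in CG10990, 120.0 and 70.0 in CG9238, 47.3 and 78.7 in BG00817 and 4.22 and 39.2 in esg. Both male control arrays were under 6, and with them raised to 47.4 the males of pyd, crol, CG10990, CG9238 and BG00817 were at least 1.56 to 2.77 log2 units higher, esg at least 0.80, while mub gave no value. Of the female arrays, 11 of 16 were under 47.4, and only CG9238 and BG00817 gave a bound (at least 0.95 and 0.36). No female line counted as shifted, though whether these 2 reached 1 is not settled by the bounds.

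**Figure D3:**
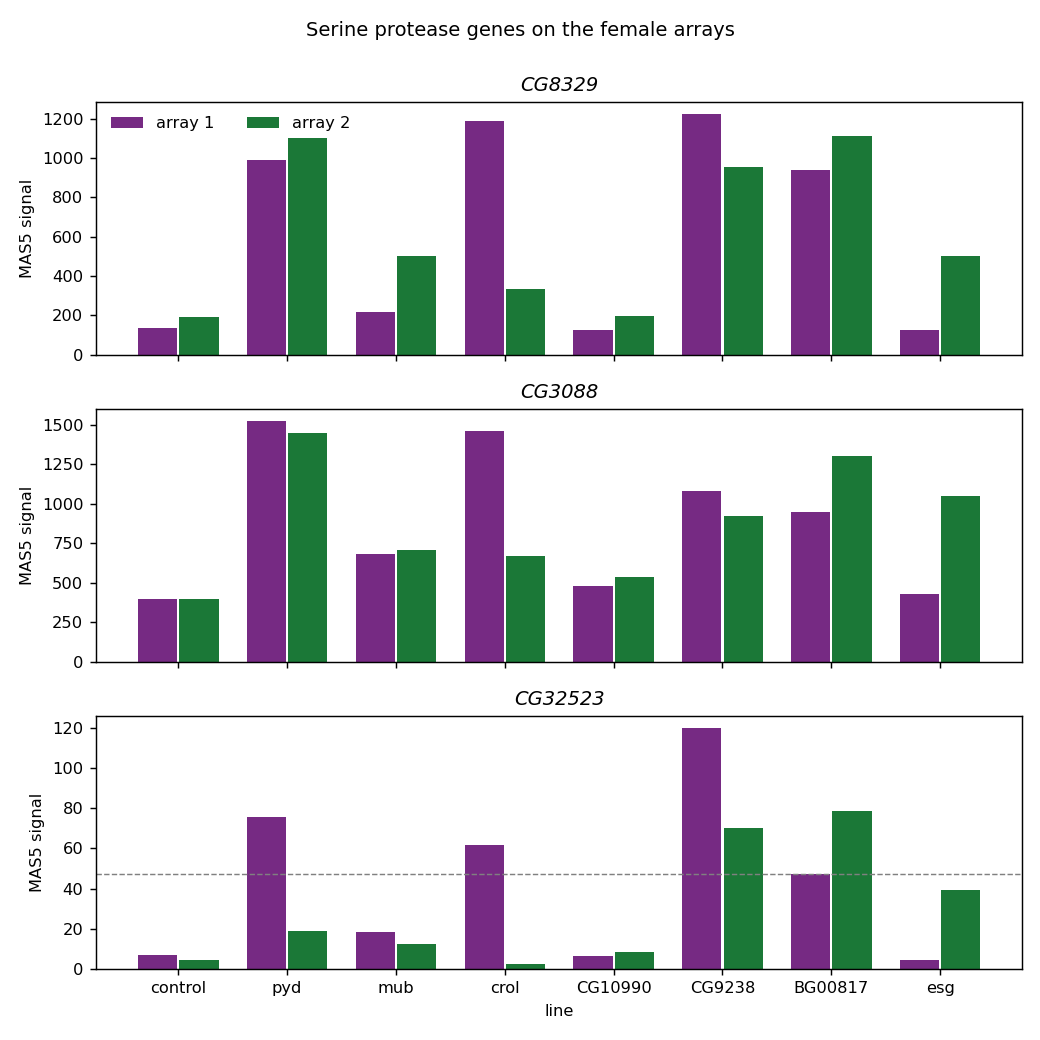
MAS5 signal (linear axis from 0) of CG8329, CG3088 and CG32523 on each female array, with the 2 arrays of a line side by side and the dashed line at 47.4. In crol the first array is the brighter for all 3 genes and in esg the second, while the 2 control arrays are low for all 3.

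The 3 protease genes moved together from line to line, and also within some pairs of arrays. Over the 16 sex-centred means r was 0.936 for CG8329 and CG3088, 0.929 for CG8329 and CG32523 and 0.876 for CG32523 and CG3088. The gap between the 2 arrays of a group gave r = 0.841, 0.812 and 0.913 for the same 3 pairs over 16 groups, and 0.379, 0.206 and 0.634 without the 2 groups farthest from the median, and the largest gaps of all 3 genes included those of crol and esg females. In crol females CG8329 read 1185 on the first array and 333 on the second and CG3088 1463 and 668. In esg females the second array was the brighter, with CG8329 at 502 against 123. These gaps between pools of 1 line were as large as several of the differences from the control in females.

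Outside the 9 genes, the pattern of CG8329 was matched most closely by CG8343 (r = 0.983) and CG11211 (r = 0.973), both C-type lectin genes, and CG7829 (r = 0.945). CG3088 gave CG8343 (r = 0.941) and CG7829 (r = 0.924), and CG32523 gave CG11211 (r = 0.973) and CG7829 (r = 0.932), each time beside CG8329. CG8343 was called in 6 lines, CG7829 in 5 and CG11211 in 3. The serine protease gene CG18179, the next gene beside CG8329, was called in 5 lines, with signals in females of 148 and 146 in the control against 871 and 571 in pyd and 2005 and 972 in mub, but 84.4 and 56.2 in BG00817, where it was lower. None of the 5 measured genes that lie between CG8329 and CG3088 was shifted in more than 1 line of either sex.

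Digestive serine proteases taken as a list, which does not count CG8329, CG3088 and CG32523, gave 2 of 33 measured genes called in 4 or more lines. They were CG18179 (5 lines, from -1.08 in BG00817 to 2.18) and the trypsin gene thetaTry (4 lines, 0.25 to 0.79). Of all kept probe sets 1.14% were called in 4 or more lines. By line, the numbers called higher and lower were 3 and 0 in pyd, 12 and 1 in mub, 4 and 3 in crol, 1 and 0 in CG10990, 2 and 1 in CG9238, 7 and 2 in BG00817 and 5 and 0 in esg. Of all kept probe sets, 1.92% were called in pyd, 12.3% in mub, 2.45% in crol and 1.3% in CG10990. The shares were 4.31% in CG9238, 8.19% in BG00817 and 5.6% in esg. The list median was 0.20 to 0.42 in 6 lines and -0.01 in CG9238, and the median of all probe sets ran from -0.05 to -0.01 over the 7 lines.

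CG7017, a gene of the chitin-binding family, was higher in 4 lines in males and, in females, in these 4 and also in crol and esg. Signals in males were 169.7 and 123 on the control arrays, 954 and 1063 in pyd, 498 and 493 in mub, 102 and 94.4 in crol, 491 and 524 in CG10990, 264 and 255 in CG9238, 1237 and 603 in BG00817 and 306 and 156 in esg. Females had 16.3 and 33.9 on the control arrays, 198 and 127 in pyd, 304 and 198 in mub, 47.7 and 314 in crol, 110.1 and 164 in CG10990, 39.1 and 60.7 in CG9238, 114 and 99.4 in BG00817 and 211 and 252 in esg. Males of pyd, BG00817, CG10990 and mub stood 1.78 to 2.80 log2 units above the control, those of CG9238 and esg 0.84 and 0.59, and both crol males lay below it, at -0.56. In females, where both control arrays were under 47.4, the 6 lines other than CG9238 were at least 1.16 to 2.37 higher, with mub and esg at the top. The crol females were far apart, at 47.7 and 314. CG7298, a gene of the chitin-binding list, was the nearest measured neighbour on one side. It was shifted upward in females of all 7 lines and in males of 2. The 14 female arrays of the lines read 244 to 2578 against 104 and 132 in the control.

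The chitin-binding and peritrophic matrix list, which does not count CG7017, gave 0 of 28 measured genes called in 4 or more lines, against 1.14% of all kept probe sets. In mub 10 of the 28 were called higher and in BG00817 12. Of all kept probe sets 12.3% were called in mub and 8.19% in BG00817, in either direction. The list median was 0.25 to 0.47 in 6 lines and -0.0010 in CG9238, while that of all probe sets ran from -0.05 to -0.01. By the size rule 6 of the 28 were shifted in 4 or more lines in females and 0 in males, against 1.3% and 0.712% of all kept probe sets. The genes most like CG7017 were CG10405 (r = 0.874), GNBP2, of the glucan-binding protein family (r = 0.864), and Mco4, a multicopper oxidase gene (r = 0.855). They spanned at most 1.05 log2 units over the means of a sex and were called in 1, 2 and 0 lines.

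CG7763, which encodes a C-type lectin domain protein, was high in a few lines and varied widely between arrays of the same line. In males its signals were 42.0 and 67.5 on the control arrays, 526 and 1276 in pyd, 672 and 1042 in mub, 27.6 and 44.9 in crol, 82.2 and 76.6 in CG10990, 170.5 and 122 in CG9238, 1011 and 49.2 in BG00817 and 97.4 and 98.5 in esg. In females they were 31.6 and 37.4 on the control arrays, 3796 and 739.9 in pyd, 953 and 1629 in mub, 27.1 and 34.0 in crol, 54.7 and 85.8 in CG10990, 588 and 479.6 in CG9238, 63.6 and 291 in BG00817 and 80.6 and 102 in esg. The pyd and mub lines stood at least 3.86 and 3.89 log2 units higher in males and at least 5.14 and 4.72 in females, CG9238 at least 1.35 and 3.49, and BG00817 females at least 1.52. The 2 BG00817 male arrays differed 20.6-fold, and 1 of them lay within the range of the control. Males of crol overlapped the control, and crol females gave no value. CG10990 and esg were at least 0.49 to 0.94 higher over both sexes, and whether they reached 1 is not settled by these bounds.

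Of 23 measured C-type lectin genes other than CG7763, 2 were called in 4 or more lines, against 1.14% of all kept probe sets. These were CG8343 in 6, 1.14 to 2.10 log2 units higher over the 7 lines, and CG15818 in 4, 0.03 to 1.62 higher. A further 14 were called in no line, as were 9733 of all kept probe sets, so nothing is read from the 14. The list median ran from -0.05 to 0.25. The patterns most like CG7763 were those of NimC4, a receptor for dying cells (r = 0.863), Mtp, a lipoprotein assembly gene (r = 0.857), and CG30281 (r = 0.852). NimC4 was called in 0 lines and Mtp and CG30281 in 1 each.

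pigs, the pickled eggs gene, which encodes a Gas2-family protein that acts in Notch signalling in the ovary, was the 1 gene of the 9 that was shifted in both sexes of all 7 lines. Male signals were 75.7 and 134 on the control arrays, 479 and 640.4 in pyd, 491 and 469 in mub, 415 and 500.0 in crol, 437 and 326 in CG10990, 387 and 356 in CG9238, 436 and 459 in BG00817 and 720.3 and 766 in esg. Female signals were 65.7 and 46.6 on the control arrays, 258 and 476 in pyd, 195 and 285 in mub, 203 and 160.3 in crol, 173 and 194 in CG10990, 220.2 and 195 in CG9238, 214 and 266 in BG00817 and 401 and 424 in esg. All 14 male arrays exceeded the brighter control array at least 2-fold and all 14 female arrays did so too. The gene was 1.88 to 2.88 log2 units higher in males (3.68-fold to 7.37-fold) and at least 1.69 to 2.88 higher in females, with esg highest in males and in females. On the log2 scale the male control arrays, at 75.7 and 134, were farther apart than the 2 male arrays of any insertion line.

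Of 16 measured genes of the Notch pathway list, which does not count pigs, 0 were called in any line by limma. The list median by line ran from -0.11 to 0.06. Most kept probe sets, 9733 of them, were also called in no line, so nothing is read from this count. The genes most like pigs were unc-13, which primes synaptic vesicles (r = 0.921), and the zinc transporter gene Zip102B (r = 0.895), both called in 7 lines and neither on the X chromosome, where pigs lies, followed by CG6067 (r = 0.812, 6 lines), which is on the X with 79 genes in between. APC7, a gene of the anaphase-promoting complex directly beside pigs, was lower in males of 4 lines, with arrays at 21.2 and 29.4 in mub and 42.7 and 51.4 in BG00817 against 139 and 153 in the control, and shifted in females of none.

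CG15263, a gene with no role known here, differed between the sexes more than any other of the 9. Male signals were 3698 and 3655 on the control arrays, 2259 and 2422 in pyd, 2104 and 2384 in mub, 2673 and 2835 in crol, 3422 and 3495 in CG10990, 2785 and 3796 in CG9238, 2761 and 2960.0 in BG00817 and 2917 and 2840.2 in esg. Females had 345 and 264 on the control arrays, 30.6 and 17.0 in pyd, 51.8 and 19.9 in mub, 16.2 and 23.1 in crol, 43.9 and 58.0 in CG10990, 57.7 and 27.8 in CG9238, 45.5 and 23.3 in BG00817 and 50.2 and 101 in esg. In females all 14 arrays of the insertion lines, 16.2 to 101, lay below both control arrays, and the change was -2.08 log2 units in esg and lay at or below bounds of -2.52 to -2.67 in the other lines. In males 13 of 14 arrays also lay below both control arrays, but the differences ran from -0.72 to -0.09, and none reached 1 unit. The 3 measured genes on either side of CG15263 were not shifted in 4 or more lines. Most like it in pattern were CG43108 (r = 0.877), CG6628 (r = 0.823) and Rnf11, an E3 ubiquitin ligase gene (r = 0.808). CG43108 was called in 0 lines, CG6628 in 1 and Rnf11 in 7.

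**Figure D4:**
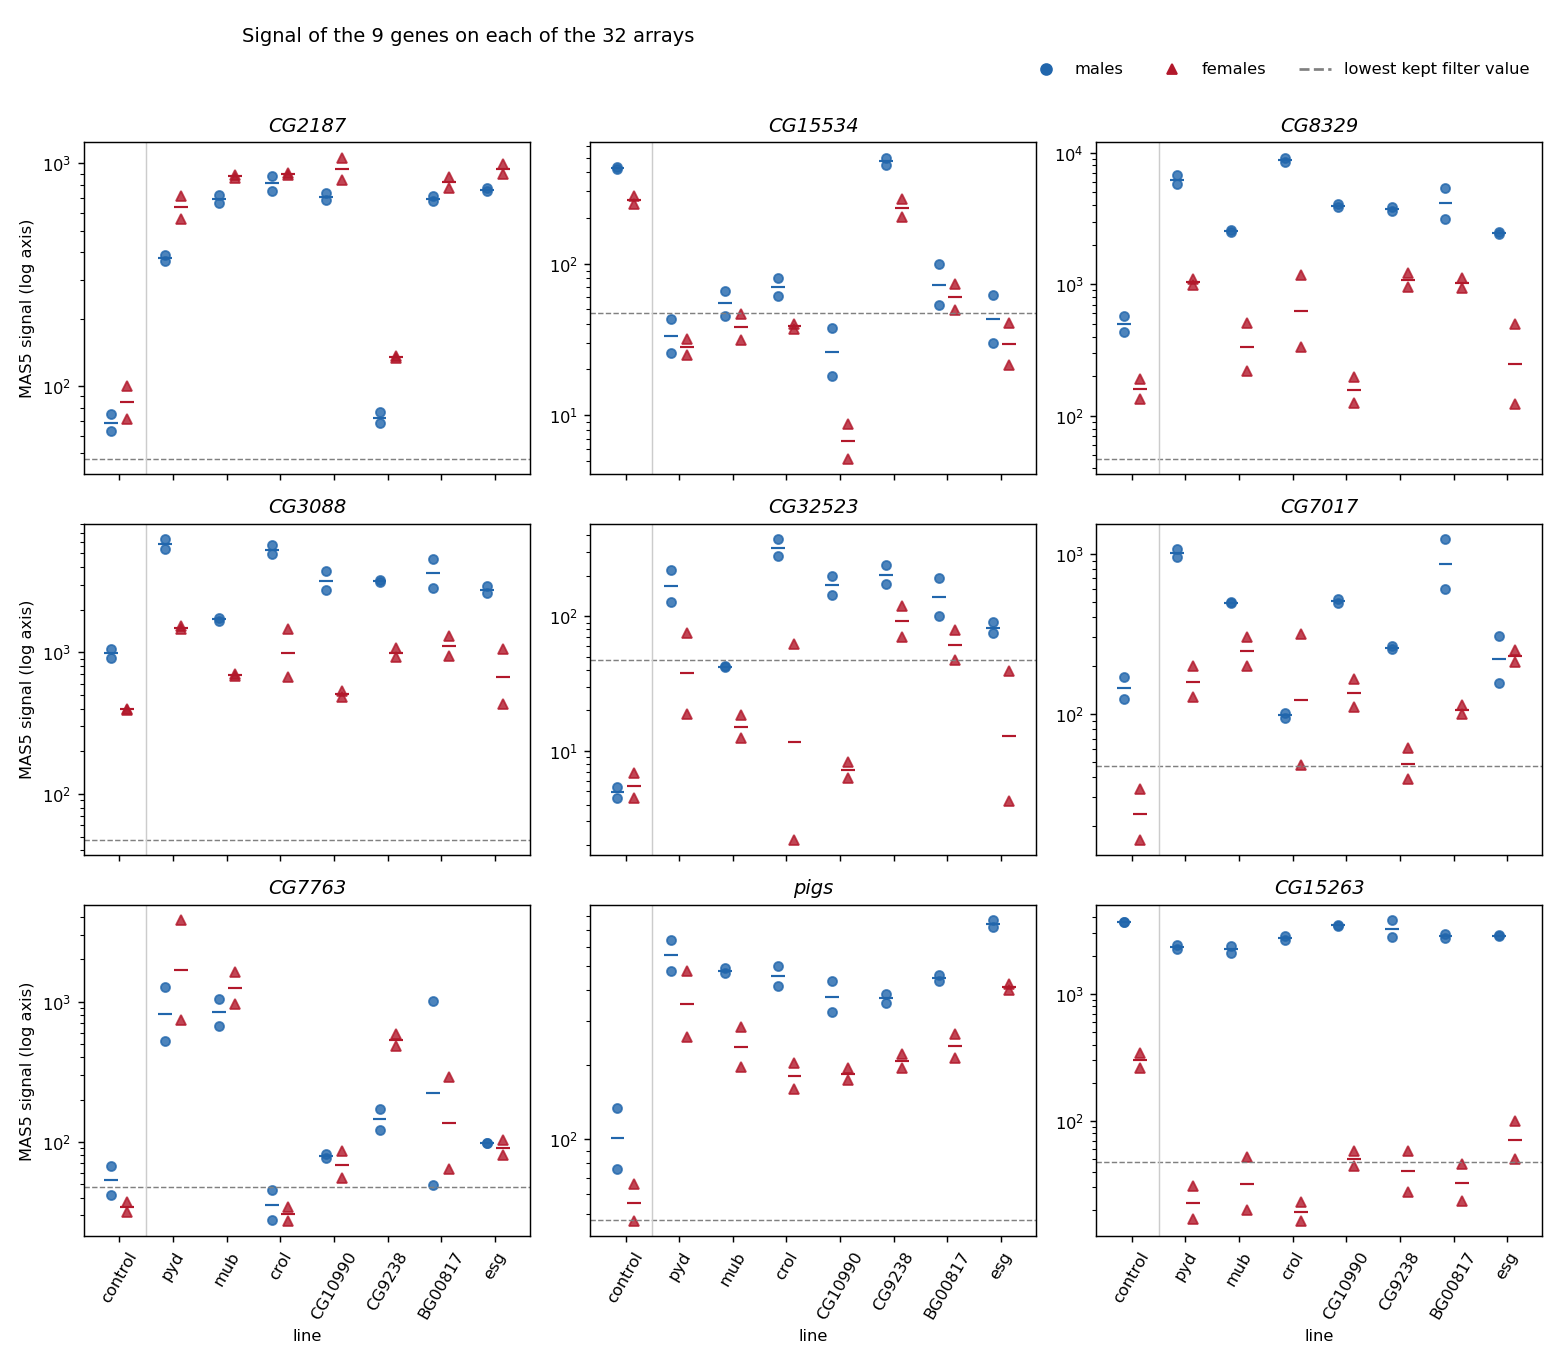
MAS5 signal (log axis) of each of the 9 genes on all 32 arrays, by line, with circles for males, triangles for females, short bars for the mean of the log2 signals of the 2 arrays and the dashed line at 47.4. CG15263 is far lower in females of the lines, while in males of the lines it is lower by at most 0.72 log2 units, CG8329, CG3088 and CG32523 keep males above females in the lines, and CG2187 and CG15534 show the CG9238 line with the control.

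The difference between the sexes is a separate contrast from the one that chose the genes, and was tested with limma on all 32 arrays, with 16 residual degrees of freedom, and p-values adjusted over all kept probe sets. Over the 8 lines 8 of the 9 genes differed between males and females at an adjusted p of at most 0.001, 7 with more signal in males and 1 with more in females, though under quantile normalization 1 of the 7, CG15534, turned to more signal in females. Of all kept probe sets 83.6% did so, 46.0% higher in males and 37.6% higher in females, so that a difference as such is common on these arrays. The balance depended on the scaling, with 5817 higher in males and 4750 in females as deposited, and 4733 and 5609 under quantile normalization. The median of males minus females over all kept probe sets was 0.20 log2 units.

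CG15263 had the largest sex difference of the 9, 5.97 ± 0.153 log2 units higher in males (SE, 16 arrays per sex, adjusted p = 2.06e-17), and 5.48 with low signals raised to 47.4, since 9 of the 16 female arrays were under it. CG8329 was 2.84 ± 0.195 higher in males (adjusted p = 5.85e-11) and CG3088 1.89 ± 0.122 (adjusted p = 2.27e-11), with both male arrays above both female arrays in 8 of 8 lines for all 3 of these genes. CG32523 was 2.23 ± 0.385 higher (adjusted p = 2.38e-05), or 1.13 with low signals raised, and lost its call under quantile normalization (0.72, adjusted p = 0.0486). CG7017 was 1.66 ± 0.21 higher in males (adjusted p = 4.96e-07), in 6 of 8 lines without overlap. pigs differed by 0.94 ± 0.10 (adjusted p = 4.26e-08), in 8 of 8 lines.

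CG15534 was 0.76 ± 0.153 log2 units higher in males (adjusted p = 1.21e-04), but -0.73 under quantile normalization (adjusted p = 0.00161), with signals under 47.4 on 6 male and 10 female arrays, so its direction is not settled by these arrays. CG2187 was the gene higher in females, by 0.42 ± 0.0539 (males minus females -0.42, adjusted p = 4.91e-07), with both female arrays above both male arrays in 7 of 8 lines. CG7763 gave -0.20 ± 0.347 (adjusted p = 0.586) and did not pass.

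**Figure D5:**
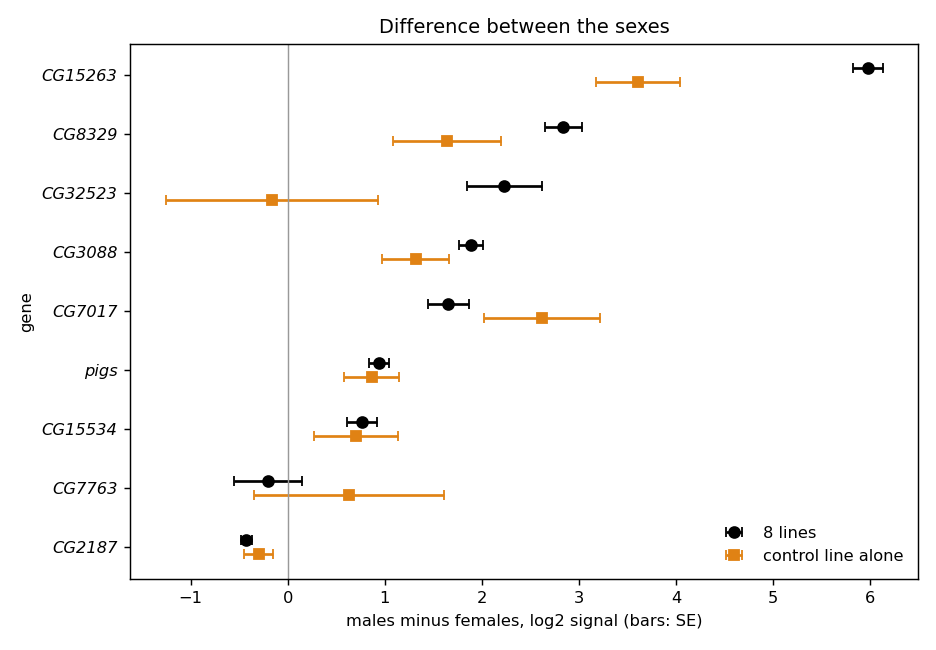
Males minus females in log2 signal for each gene, over the 8 lines (black circles) and in the control line alone (orange squares), with SE bars from the limma fit on 32 arrays. CG15263 lies at 5.97 over the 8 lines and 3.61 in the control, and CG2187 is the lowest at -0.42.

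In the control line alone, with 2 arrays of each sex, 2 of the 9 genes were called, where 58.7% of all kept probe sets were. These were CG15263, 3.61 ± 0.432 log2 units higher in males (adjusted p = 5.88e-07), and CG7017, 2.62 ± 0.595 higher (adjusted p = 6.31e-04), or 1.61 with low signals raised. CG7017 lost its call without control males replicate 1, without control males replicate 2 and without control females replicate 1, at 2.09 to 2.85. It also lost it with no filter (2.62, adjusted p = 0.00113), with the offset of 32 (1.65, adjusted p = 0.00187) and under quantile normalization (1.15, adjusted p = 0.0649). CG8329 stood at 1.64 ± 0.552 (adjusted p = 0.0117) and CG3088 at 1.32 ± 0.345 (adjusted p = 0.00207). CG3088 was called under quantile normalization (1.55, adjusted p = 6.90e-04), with median centring (1.48, adjusted p = 7.04e-04) and without any 1 of the crol or esg female arrays (adjusted p = 3.45e-04 to 6.57e-04). pigs was at 0.86 ± 0.284 (adjusted p = 0.0101), and CG15534, CG2187, CG7763 and CG32523 had adjusted p of 0.0822 to 0.897. Under quantile normalization CG2187 was called, higher in females, with males minus females at -1.77 (adjusted p = 5.55e-09) against -0.30 as deposited.

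Whether the shift itself differed between males and females was tested as the interaction of line and sex. Over the 7 lines together, limma called 0 of the 9 genes at an adjusted p of at most 0.001, where 0.586% of all kept probe sets were called. An unadjusted p under 0.05 was found for 4 of the 9, and nothing is read from it, since the share of all probe sets was not counted. The smallest adjusted p was 0.0139, for CG15263, followed by 0.0343 for CG7017, 0.0706 for CG8329 and 0.115 for CG2187. An analysis of variance on the untransformed signal called CG8329 and CG15534, and with quantile normalization CG2187 was called (adjusted p = 8.79e-06), so these 3 results depend on the scale.

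Line by line, on 8 arrays each and at an adjusted p of at most 0.05, 1 of 63 pairs of gene and line was called. An unadjusted p under 0.05 was found for 19, again without the share of all probe sets, so nothing is read from it. The called pair was CG15263 in crol, with a change of -0.42 log2 units in males and of -2.67 or lower in females (interaction 3.54 ± 0.296 on the signals as they are, adjusted p = 0.0391), in a line where 0.285% of all kept probe sets were called. The call was lost with any 1 of the 8 arrays left out, at adjusted p of 0.0503 to 0.182. For the same gene the other 6 lines gave 1.73 to 3.07 with adjusted p of 0.106 to 0.202. The other 62 pairs had adjusted p of 0.0728 to 0.995, among them CG8329 in CG10990, with 2.99 log2 units in males and -0.03 in females (interaction 3.02 ± 0.405, adjusted p = 0.174), and CG7017 in esg, with 0.59 in males and at least 2.28 in females (interaction -2.70 ± 0.656, adjusted p = 0.174).

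The precision of these values differed from gene to gene. The SD between the 2 arrays of a group, pooled over the 16 groups, was 0.15 log2 units for CG2187, 0.29 for pigs, 0.36 for CG3088, 0.45 for CG15534 and CG15263, 0.58 for CG8329, 0.62 for CG7017, 1.03 for CG7763 and 1.14 for CG32523, against a median of 0.20 over all kept probe sets. The paired pools were drawn from flies of a line that had already been aged and frozen, and no separate rearing of the pools is described, so that the spread, like every p-value, measures the difference between such pools, which may be technical.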

How the data were processed

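Whole flies of 8 lines, 2 pools per line and sex, were hybridised to 32 Affymetrix Drosophila Genome 2.0 arrays. The intensity values deposited by the authors are MAS5 signals (version not given in the sources used here), a single linear value per probe set, with a mean of 500 on each array once 2% is trimmed at each end, whereas the methods name a median. This scaling sets the same mean in males and females, so sex differences depend on it. Detection calls were not used here. Array controls (183 of 18952 probe sets) were left out, and 12636 probe sets were kept, the number that the study analysed. They were ranked by the dimmer array of each group, taking the group where that array was brightest. Signals below the last value kept, 47.4, gave bounds.

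The tests were run on log2 signal with limma 3.58.1 (R 4.3.3) and Benjamini-Hochberg adjustment over all kept probe sets. The sex and interaction tests used 1 mean per line and sex on 32 arrays (16 residual and 1.7 prior degrees of freedom, threshold 0.001), and the tests of single lines used 8 arrays (4 residual degrees of freedom, threshold 0.05). The fit was tested on simulated data. The terms follow the study's model of line, sex and their interaction. Its analysis of variance with q-values was replaced by limma, and the scale of the values it fitted is not settled by the sources used here. Alternatives were quantile normalization, median centring, no filter, a filter at a signal of 100, an offset of 32, an intensity trend, analysis of variance, a replicate block, all 32 arrays in 1 fit, other sizes of shift, and each array left out.

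The members and lists were chosen with earlier results of these data known. Genes are named by a rule: the 9 members, the 3 genes most like each, the 3 measured genes on either side where shifted in 4 or more lines, and list genes called in 4 or more lines (lists of digestive serine proteases, peritrophic matrix and chitin-binding genes, C-type lectins, sphingolipid metabolism, SLC5 transporters and the Notch pathway). Smvt, CG15533, CDase, Npc2h, Cp18, Femcoat, CG13083 and CG13114 fall outside it and were named after their values were seen. The counts of the lists leave out the 9 members. A gene with several probe sets is represented by the brightest. Names come from the platform annotation, and gene order from RefSeq, Release 6 plus ISO1 MT.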

Additional observations from a re-analysis of the deposited data

Results flagged for a closer look

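For CG15263 the measured fall from the control was larger in females than in males of the crol line. The change in males minus that in females was 3.54 log2 units, and it is listed here because the interaction test of limma on 8 arrays called it (adjusted p = 0.0391). The call was lost with any 1 of the 8 arrays left out. The other 6 lines had the same direction, at 1.73 to 3.07, and were not called. All 4 crol arrays lay below the control arrays of their sex, at 2673 and 2835 against 3655 and 3698 in males and at 16.2 and 23.1 against 264 and 345 in females. Both female crol signals were under 47.4, so the size of the fall in females is a bound, and the value of 3.54 rests on these low signals.

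For CG7017 in crol, both male arrays (94.4 and 102) lay below both control arrays (123 and 170), while both female arrays (47.7 and 314) lay above theirs (16.3 and 33.9). The change in males minus that in females was -2.94 log2 units on the signals as they are, and the interaction test did not call it (adjusted p = 0.335). Both control females were under 47.4, so this size rests on low signals. The part of array spread in this pattern was not tested.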

How the results depend on the processing

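Of 1325 values recomputed under an alternative, 1267 kept their direction, side of the threshold or size, 17 lost a call, 10 gained one, 7 turned and 24 counts moved by over 1.5 times. Many of the 1325 values could not change. Leaving out an array of 1 insertion line leaves the size of the sex difference in the control and the results of the other single lines as they were. The 8 genes called for sex over the 8 lines stayed at 6 to 8. In the control line 2 calls became 1 with no filter and with the offset, and ranged from 1 to 3 with 1 array left out. The interaction over 7 lines went from 0 calls to 1 with quantile normalization and 2 with analysis of variance on untransformed signal. Interaction calls in single lines went from 1 to 0 with no filter, 2 with the stricter filter, 10 with the offset and 4 with all 32 arrays in 1 fit, and moved with some arrays left out. Over all kept probe sets such calls rose in every line with the offset and with all 32 arrays in 1 fit, in mub from 17 to 512 and 513. Calls of line against control went from 52 to 30 with analysis of variance on log2 signal and ranged from 26 to 53 with 1 array left out. The 89 shifts ranged from 78 to 100, and neither a filter choice other than the stricter one nor a block bears on them.

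Directions turned in males minus females for CG7763 over 8 lines (0.0075 with median centring, -0.47 to 0.072 with 1 array left out, the highest without BG00817 males replicate 2), for CG15534 over 8 lines (-0.73, quantile normalization), and in the control line for CG7763 (-1.43) and pigs (-0.55) with quantile normalization and for CG32523 with median centring (0.0034) and with 1 array left out (-0.46 to 0.14, the highest without control females replicate 1). The causes were not tested. Median males minus females over kept probe sets was 0.20 as deposited, -0.13 with quantile normalization and 0.41 with median centring.

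Replicate numbers do not mark shared batches in the labels, and the deviations of same-numbered arrays correlated at -0.0069 in the median over 120 pairs of groups (-0.14 to 0.24, 7 over 0.1). With the replicate block the counts were 8, 2, 0, 0 and 39 for sex over 8 lines, sex in the control, the interaction over 7 lines, the interaction in single lines and line against control. Signals under 47.4 limit CG32523, CG15534 and CG15263 in females most.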

Other observations

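The shift patterns of CG2187, pigs and CG15263 were looked for in all kept probe sets after their values had been seen, as a description without a test. Shifted in one direction in both sexes of the 6 lines other than CG9238, and in neither sex of CG9238, were 5 probe sets, which name 3 genes. Besides CG2187 and CG15534 this was Npc2h, of a family of sterol-binding proteins, which lies on arm 3R between them, with 123 genes to CG2187 and 53 to CG15534. Npc2h read 3116 to 5112 in males of the 6 lines, 1613 and 1655 in CG9238 and 1026 and 1343 in the control. In females it read 567 to 3086 in the 6 lines, 250.5 and 251 in CG9238 and 187 and 216 in the control.

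Shifted in one direction in both sexes of all 7 lines were 6 probe sets, which name 4 genes, pigs on the X and unc-13, Zip102B and Rnf11 on chromosome 4. Zip102B read 34.1 and 43.5 on the control males and 505 to 888 in males of the lines, and 18.2 and 29.6 on the control females against 378 to 787. unc-13 read 445 and 471 in control males against 1106 to 1674, and 163 and 167 in control females against 547 to 933. Rnf11 was lower in the lines, at 481 to 1188 in males against 2445 and 2560 in the control, and at 103 to 359.6 in females against 3661 and 3817. The 3 genes are separate from pigs by chromosome, and what they share was not tested.

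Shifted in females of all 7 lines and in males of none were 5 probe sets of 5 genes. CG15263 was the 1 that was lower. The other 4 were higher, Cp18, a chorion gene, Femcoat, an eggshell gene, CG13083 and CG13114. Cp18 read 271 and 2991 on the 2 control females against 3629 to 10723 in the lines. Femcoat read 103 and 382 in control females against 386 to 1634. The spread between the 2 control females bears on every line alike.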
